A study of Mus musculus with 6 samples.

Results

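Genes for heat shock proteins, DnaJ co-chaperones and protein disulfide isomerases were followed in the degenerating mouse cochlea. The members are the protein-coding genes of the mouse annotation whose symbols begin with Dnaja, Dnajb or Dnajc, with Hspa, Hspb, Hspd, Hspe or Hsph and a digit, with Hsp90, or with Pdia and a digit. In all, 76 genes were followed. At least 1 transcript was listed in the deposited table for 67 of them, among 33676 genes in all, and 55 passed the filter on low counts and were tested. RNA was sequenced from the modiolus, around which the cochlea winds and in which the spiral ganglion neurons (SGNs) lie, in 3 control and 3 degenerated libraries from C57BL/6 mice. Control mice were injected with saline. Degenerated mice were injected with 1 g/kg kanamycin and 0.4 g/kg furosemide, an aminoglycoside and a loop diuretic that together destroy the hair cells, and the tissue was taken on day 30. The mice were males of 8 weeks at the start of the study. Groups were taken from the labels and treatments from the study's methods, and neither says whether each library came from its own animal, so that every p-value measures only the spread between these 3 and 3 libraries.

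Chaperones bind unfolded stretches of other proteins and keep them from clumping. Hsp70 proteins do so in cycles driven by ATP, DnaJ (Hsp40) proteins hand them their clients and set off ATP hydrolysis, Hsp90 proteins finish the folding of kinases and receptors, and protein disulfide isomerases make and rearrange disulfide bonds in the endoplasmic reticulum (ER). Each compartment of the cell has its own set. Unfolded protein in the ER switches on the unfolded protein response, whose sensors Ern1, Eif2ak3 and Atf6 raise the ER chaperones, whereas unfolded protein in the cytosol releases heat shock factor 1, which raises the cytosolic ones. Neurons rely on both sets, because they make and ship large amounts of membrane protein over long axons.

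The promoters of some members carry the letters by which these responses are usually recognised, and they are shown because the ER and cytosolic members are described apart below. The ER stress element, CCAAT and CCACG with 9 bases between them, is the classical site of the ER response, and the heat shock element, the units GAA, TTC and GAA with 2 bases between neighbours, that of heat shock factors. Both were searched on both strands, from 250 bases before to 50 bases after each start of a gene in RefSeq (GRCm38.p6), and 62 of the 76 members had such a window. The ER stress element was found in 0.137% of the 27025 genes with a window, and in 4 of 12 ER lumen members (Dnajc3, Hsp90b1, Hspa5 and Pdia6) against 0 of 26 members of the cytosol and nucleus. The 250 bases before the start are printed 5′ to 3′ on the strand of the gene, with matches to the element in capitals. The match began 105 bases before the start in Dnajc3 and 98 bases before it in Pdia6, and Hsp90b1 held 2 matches, 1 on each strand.
Dnajc3, chr14:118937682-118937931, plus strand: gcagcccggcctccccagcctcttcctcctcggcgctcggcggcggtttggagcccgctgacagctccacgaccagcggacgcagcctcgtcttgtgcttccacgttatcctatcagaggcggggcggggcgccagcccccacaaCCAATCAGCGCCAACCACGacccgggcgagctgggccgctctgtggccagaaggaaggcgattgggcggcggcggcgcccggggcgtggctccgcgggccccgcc
Hsp90b1, chr10:86705445-86705694, minus strand: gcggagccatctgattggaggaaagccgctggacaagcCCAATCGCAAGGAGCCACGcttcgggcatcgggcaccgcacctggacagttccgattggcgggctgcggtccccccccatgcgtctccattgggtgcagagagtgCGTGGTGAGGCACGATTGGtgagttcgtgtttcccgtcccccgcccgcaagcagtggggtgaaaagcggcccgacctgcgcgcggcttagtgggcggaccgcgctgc
Pdia6, chr12:17266339-17266588, plus strand: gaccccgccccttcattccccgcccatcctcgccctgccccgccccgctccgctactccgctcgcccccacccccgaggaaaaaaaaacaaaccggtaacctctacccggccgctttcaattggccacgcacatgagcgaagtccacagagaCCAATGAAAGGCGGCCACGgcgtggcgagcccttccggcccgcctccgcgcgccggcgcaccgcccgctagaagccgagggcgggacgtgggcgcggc

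The heat shock element was found in 0.662% of genes and in 4 members: Dnajb6, Hsph1, Hspd1 and Hspe1. In Hsph1 the match lay after the start. The windows of Hspa1a, Hspa1b and Dnajb1 held 0 matches to this pattern. Hspd1 and Hspe1, the mitochondrial chaperonin and its lid, lie head to head and share the window, in which the capitals mark 2 overlapping matches, 1 on each strand.
Hspe1, chr1:55087898-55088147, plus strand: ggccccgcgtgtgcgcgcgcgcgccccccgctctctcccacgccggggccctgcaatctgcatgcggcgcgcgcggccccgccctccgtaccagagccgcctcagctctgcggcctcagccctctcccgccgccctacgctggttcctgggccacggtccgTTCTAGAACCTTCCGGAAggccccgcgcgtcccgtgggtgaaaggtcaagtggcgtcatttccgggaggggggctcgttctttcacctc
A shorter ER element, ATTGG and CCACG with 1 base between them, was found in 0.0444% of genes and in 1 member, Dnajb11, after the start. Matches describe letters in a window and were not tested as binding sites.

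Libraries held 12480876 to 15549319 counts, and replicates of a group correlated at 0.913 to 0.948 on the log2 scale. The labels name the cell type as spiral ganglion neuron, but the libraries held RNA of the whole modiolus. Summed levels of the neuron markers were 8917 to 12262 CPM (counts scaled to a common library size) in the controls. In the degenerated libraries they were 5537 to 8092 CPM. Of 11 tested neuron markers, 9 had lower values in degenerated libraries, 4 of these reached an unadjusted p under 0.05 (edgeR), and 0 were called. For 5 of the 11, every degenerated library lay below every control, where 7.37% of all genes did so. Schwann cell markers summed to 4900 to 9790 CPM and red blood cell markers to 3479 to 41372 CPM in all 6 libraries. Bone markers summed to 1816 to 2301 CPM in the controls and 1043 to 1643 CPM in the degenerated libraries, with 5 of 5 tested genes at lower values, 4 at an unadjusted p under 0.05 and Bglap called lower. Hair cell markers summed to 519.7 to 819 CPM in the controls and 266 to 601 CPM in the degenerated libraries, with 7 of 8 at lower values and Slc26a5 and Cib2 called lower. Macrophage markers summed to 267 to 303 CPM in the controls and 327 to 442 CPM in the degenerated libraries. Of 4 tested genes, 3 had higher values and 1, Cd68, a lower one, and C1qb was called higher. C1qb alone had a mean of 183 CPM in the controls and 294 CPM in the degenerated libraries, and Cd68 3.88 and 1.33 CPM. Control replicate 3 held 539 CPM of muscle markers against 3.52 to 10.7 CPM in the other 5 libraries, and plasma cell markers ranged from 102 CPM in control replicate 1 to 1105 CPM in control replicate 2. In such bulk tissue, fewer cells of a type and less RNA per cell cannot be told apart. The part of these cells in the values below was not tested.

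A gene was called where its unadjusted p was under 0.01 and its log2 fold change above 0.2 in size in the quasi-likelihood test of edgeR, fitted to all 14118 genes with enough counts. By this criterion 2 of the 55 tested members were upregulated, Dnajc3 and Hspa2, and 0 were downregulated, where 2.01% of all genes were called higher and 0.715% lower. With DESeq2 the same criterion was met by 5 members with higher and 0 with lower levels (3.39% and 2.17% of all genes), with edgeR's exact test by 5 and 0 (2% and 0.921%) and with limma-voom by 2 and 0 (2% and 0.758%). In edgeR's quasi-likelihood test, 0 members passed an adjusted p of 0.05, as did 0% of all genes, and 8 passed an unadjusted p of 0.05, as did 9.68% of all genes. The adjusted threshold was passed by 3 members in DESeq2 (Dnajc3, Hspa2 and Hsp90aa1, beside 2.71% of all genes), by 0 in edgeR's exact test (0.815%) and by 0 in limma-voom (0%). The unadjusted threshold was passed by 9 members in DESeq2 (11.4% of all genes), 6 in the exact test (7.22%) and 9 in limma-voom (9.82%). All 3 degenerated libraries lay above all 3 controls for 14 members and below them for 4, where 10.3% of all genes lay above and 7.37% below. For 1 gene alone, an exact permutation test of 3 against 3 cannot give a two-sided p under 0.1.

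The compartments differed in their medians. Over the tested members, the median log2 fold change of degenerated against control libraries was 0.51 for the ER lumen (9 genes, all with values above 0), 0.09 for the ER membrane (4 genes), 0.20 for the cytosol and nucleus (24 genes, 15 above 0) and -0.0005 for the mitochondrion (8 genes, 4 above 0), beside -0.003 for all genes tested. These medians were not tested against each other. Of all genes tested, 49.7% had values above 0. Among the 9 ER lumen genes, Dnajc10 and Pdia6 were counted only in noncoding transcripts, and Dnajb11 and Dnajc1 were at very low levels. ER lumen and membrane members together had a median of 0.27 over 13 genes, and this median moved to 0.45 when control replicate 3 was left out, to 0.53 when degenerated replicate 1 was left out and to 0.39 where genes with a mean count of at least 10 were kept. The median of the cytosol and nucleus was 0.06 without control replicate 3, 0.09 without control replicate 1 and 0.11 without degenerated replicate 2.

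**Figure D1:**
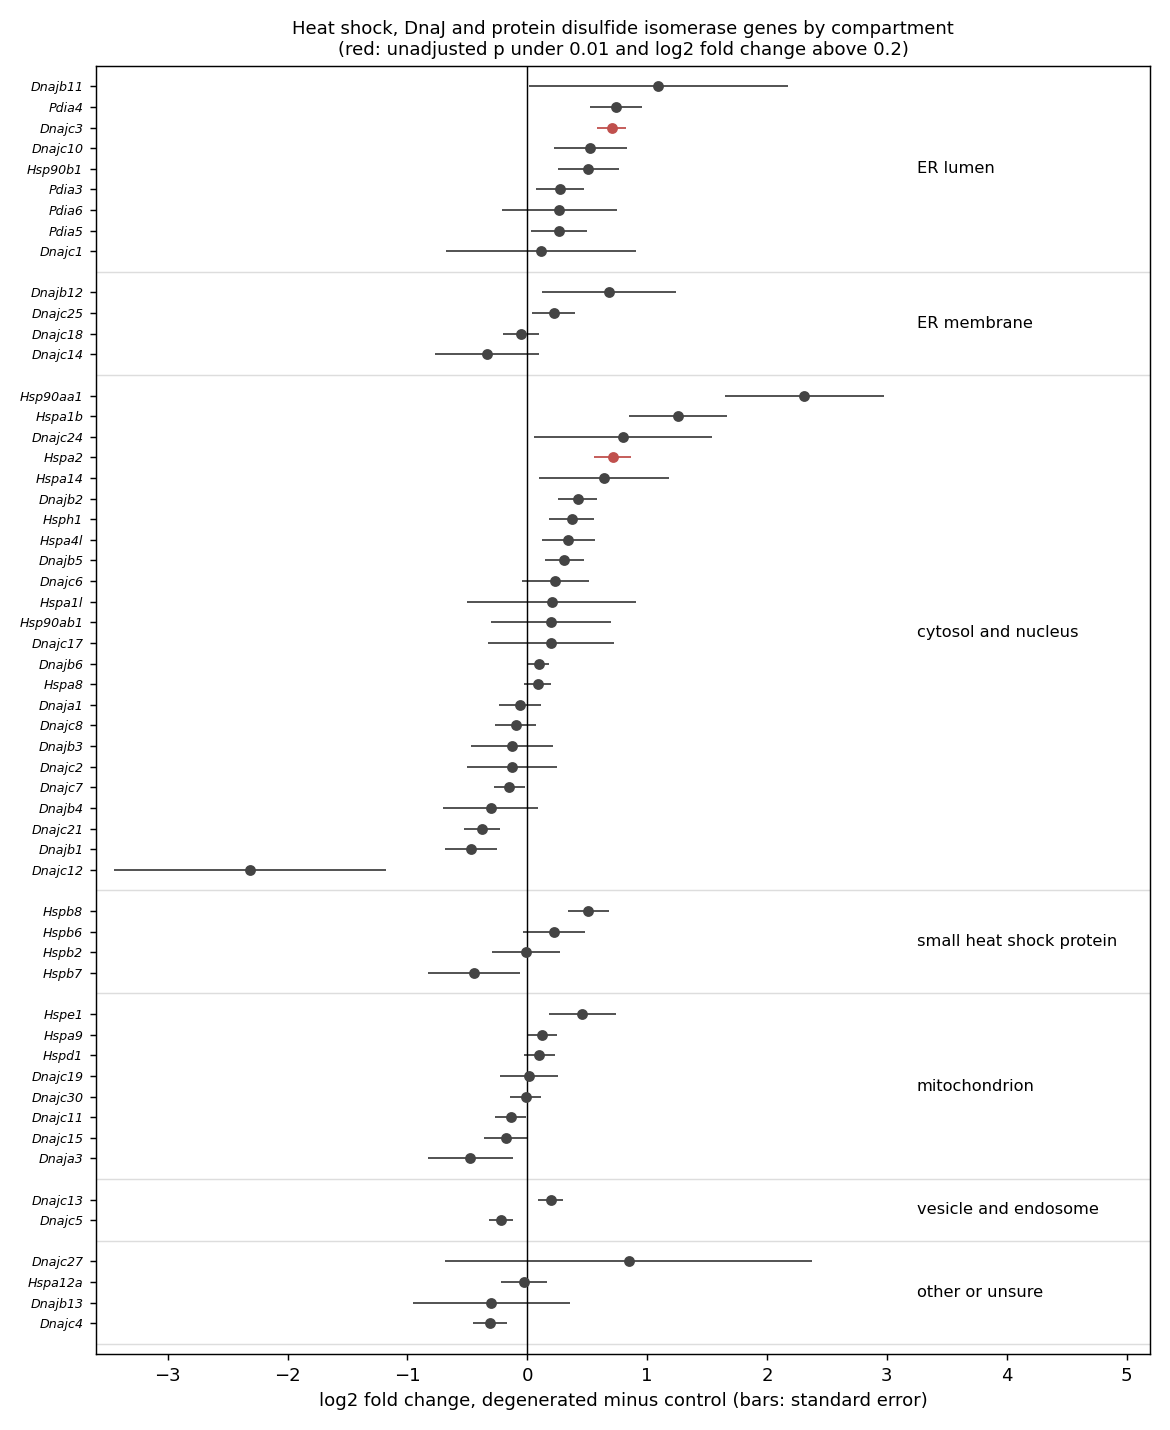
Log2 fold change of degenerated against control libraries for the 55 tested members, 1 point per gene with its standard error, grouped by compartment. The 9 ER lumen members lie above 0 with a median of 0.51, whereas mitochondrial members lie on both sides of 0. Of all genes tested, 49.7% had values above 0.

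Dnajc3 (ENSMUSG00000022136, chr14:118937976-118981697, plus strand of GRCm38) had the smallest p of all members and was upregulated in the degenerated libraries. It encodes p58IPK, a DnaJ protein that works with the ER Hsp70 and restrains the kinase Eif2ak3. Its level was 531, 431 and 428 CPM in control replicates 1 to 3 and 734, 759 and 769 CPM in degenerated replicates 1 to 3, and it rose from 463 ± 58.5 to 754 ± 17.9 CPM (mean ± SD, n = 3 per group). All degenerated libraries lay above all controls and close to each other (log2 fold change 0.70 ± 0.12, SE, adjusted p = 0.239 in edgeR's quasi-likelihood test, adjusted p = 0.000996 in DESeq2). The call held without any 1 of the 6 libraries, with log2 fold changes of 0.64 to 0.80. Dnajc3 has 1 annotated transcript, which codes for protein and was listed, so that its count does not depend on which of several transcripts the table holds.

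Among the protein disulfide isomerases, Pdia4 had the largest difference. The level of Pdia4 (ENSMUSG00000025823, chr6:47796141-47813430, minus strand), an isomerase of the ER lumen, was 257, 160.0 and 204 CPM in control replicates 1 to 3 and 339, 286 and 411 CPM in degenerated replicates 1 to 3. Its groups did not overlap, but the nearest libraries, control replicate 1 and degenerated replicate 2, were close, and it missed the criterion (log2 fold change 0.74 ± 0.22, adjusted p = 0.398 in edgeR's quasi-likelihood test). It met the criterion with DESeq2, with edgeR's exact test and without control replicate 1. Pdia3, which folds glycoproteins together with calreticulin and calnexin, was at 1319, 818 and 1042 CPM in the controls and 1320.3, 1118 and 1406 CPM in the degenerated libraries. Control replicate 1 was as high as degenerated replicate 1, and the log2 fold change was 0.27 ± 0.20. Pdia5 was at 9.13, 8.42 and 8.81 CPM in the controls and 9.92, 10.1 and 11.6 CPM in the degenerated libraries, without overlap but with a log2 fold change of 0.26 ± 0.24.

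Hsp90b1 (Grp94, ENSMUSG00000020048, chr10:86690209-86705509, minus strand), the Hsp90 of the ER, was the most abundant ER member at 1768, 926 and 1199 CPM in the controls and 1766, 1643 and 2136 CPM in the degenerated libraries. Control replicate 1 stood as high as the degenerated libraries, and the other 2 controls lay below all of them (log2 fold change 0.51 ± 0.26, adjusted p = 0.59 in edgeR's quasi-likelihood test). Without control replicate 1 the log2 fold change was 0.79 and met the criterion. Hsp90b1 and Pdia3 made up most of the summed level of the ER lumen members, so that the order of the sum is largely theirs. The sum was 3902 CPM in control replicate 1 and 2357 and 2902 CPM in the other controls. In the degenerated libraries it was 3845 to 4757 CPM. Dnajc3, Pdia4, Hsp90b1 and Pdia3 each had their highest control value in replicate 1, which also held the highest summed neuron (12262 CPM) and Schwann cell (9790 CPM) markers, and the part of these markers in the values was not tested.

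The remaining ER lumen members gave little information. Dnajc10 (ERdj5), a reductase with a DnaJ domain, and Pdia6 were counted in transcripts that do not code for protein. Dnajc10 was at 4.63, 3.47 and 3.51 CPM in the controls and 6.70, 5.28 and 4.74 CPM in the degenerated libraries, without overlap (log2 fold change 0.53 ± 0.31), and Pdia6 ranged from 5.75 CPM in degenerated replicate 1 to 19.6 CPM in degenerated replicate 2. Dnajb11 (ERdj3), a co-chaperone of the ER Hsp70, was near the detection limit at 2.12, 0.141 and 0.128 CPM in the controls and 1.23, 2.32 and 1.58 CPM in the degenerated libraries, with a log2 fold change of 1.09 ± 1.08. Dnajc1 was near 1 CPM with a log2 fold change of 0.12 ± 0.79, and Pdia2 had 1 count in all. The 3 tested members with the ER stress element before the start, Dnajc3, Hsp90b1 and Pdia6, had log2 fold changes of 0.70, 0.51 and 0.26, and Pdia4, whose window held none, 0.74. The window of Pdia4, placed by its RefSeq start, lies wholly upstream of the gene coordinates given above and does not cover the start there. Hspa5 (BiP, the ER Hsp70), Dnajb9 and Hspa13 had no listed transcript and are not analysed here, which says nothing of their expression, since the table may be cut short.

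**Figure D2:**
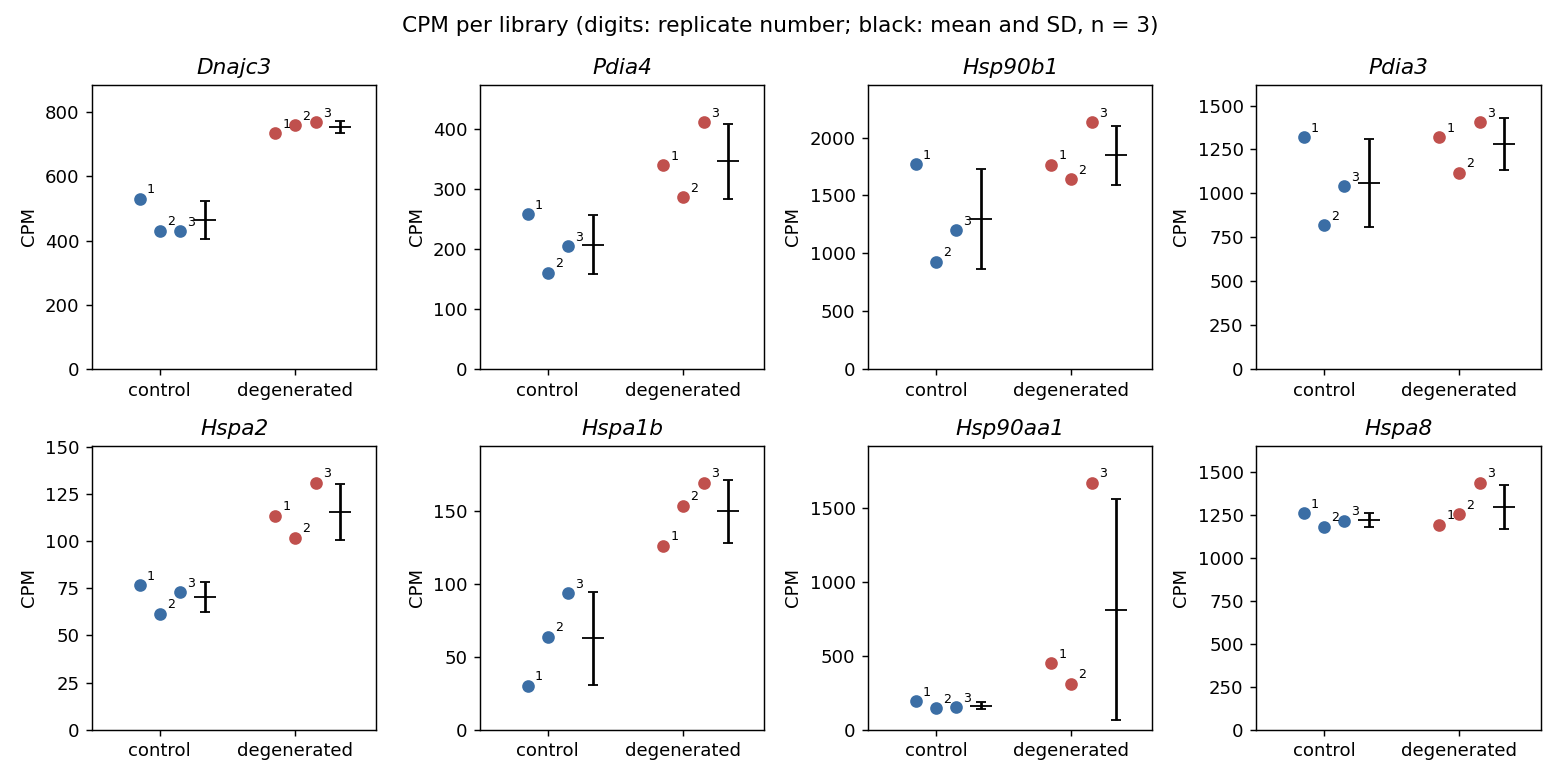
CPM of single members in each library, controls at left and degenerated libraries at right, with the digit giving the replicate and each axis starting at 0. Dnajc3 lay at 428 to 531 CPM in the controls and at 734 to 769 CPM in the degenerated libraries, whereas Hspa8 lay between 1183 and 1440 CPM in all 6.

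DnaJ proteins anchored in the ER membrane send misfolded membrane proteins to degradation. Dnajb12, the best known of them, was at 6.88, 30.1 and 33.4 CPM in the controls and 35.2, 37.7 and 40.0 CPM in the degenerated libraries. All degenerated libraries were higher, but 2 of the controls were close to them and control replicate 1 was far below (log2 fold change 0.68 ± 0.56). Dnajc14 was at 120.0, 56.5 and 50.4 CPM in the controls and 79.1, 63.3 and 36.9 CPM in the degenerated libraries, with its highest value in control replicate 1 and a log2 fold change of -0.34 ± 0.43 that turned to 0.15 without that library. Dnajc25 (log2 fold change 0.22 ± 0.18) and Dnajc18 (-0.051 ± 0.15) had overlapping groups, and Dnajb14 and Dnajc16 were too low to test.

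The other genes of the ER response were taken from a list of 30. Of its 24 tested genes, 4 were upregulated and 0 downregulated by the same criterion (2.01% and 0.715% of all genes), 21 had values above 0 (49.7% of all genes) and the median log2 fold change was 0.31. Without 1 library, the number called was 1 to 4, where 144 to 339 of all genes were called higher against 284 with all libraries. It was 1 without control replicate 3, degenerated replicate 1 or degenerated replicate 3, when 171, 206 and 179 of all genes were called higher.

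Chac1, a glutathione-degrading enzyme induced downstream of Atf4, had the largest rise of the list, at 6.75, 5.94 and 6.25 CPM in control replicates 1 to 3 and 18.5, 14.8 and 13.4 CPM in degenerated replicates 1 to 3. All degenerated libraries lay above the controls, which were close to each other, and Chac1 was called without any 1 library (log2 fold change 1.30 ± 0.25, adjusted p = 0.274 in edgeR's quasi-likelihood test). Hyou1, the large Hsp70-like protein of the ER and an exchange factor of its Hsp70, was at 65.3, 45.8 and 55.7 CPM in the controls and 91.2, 91.0 and 106 CPM in the degenerated libraries (log2 fold change 0.79 ± 0.17). Sdf2l1, which keeps the ER Hsp70 cycle running, was at 55.0, 36.5 and 49.3 CPM in the controls and 82.9, 77.5 and 108 CPM in the degenerated libraries (0.93 ± 0.22). Creld2, a secreted ER stress protein, was at 93.8, 67.2 and 92.0 CPM in the controls and 135, 128 and 173 CPM in the degenerated libraries (0.79 ± 0.19). Of the 24 tested genes of the list, 10, these 4 among them, had all degenerated libraries above all controls, and 0 had all below. Of all genes, 10.3% lay above and 7.37% below. The window held 0 matches to the ER stress element in Chac1 and Sdf2l1, and of the list's 22 genes with a window, Calr, Canx, Creld2, Derl3 and Syvn1 held 1 match each. Of these only Creld2 was called, and the log2 fold changes of Calr, Derl3 and Syvn1 were -0.52 ± 0.33, 1.21 ± 0.55 and 0.20 ± 0.93. The promoter of Creld2 carries the ER stress element on the opposite strand, 126 bases before the start.
Creld2, chr15:88819396-88819645, plus strand: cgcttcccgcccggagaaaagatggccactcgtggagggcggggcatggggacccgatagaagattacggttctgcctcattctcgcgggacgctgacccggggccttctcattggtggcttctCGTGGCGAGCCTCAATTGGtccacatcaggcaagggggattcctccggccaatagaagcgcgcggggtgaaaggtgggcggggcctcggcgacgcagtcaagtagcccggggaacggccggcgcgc

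Manf, a secreted factor released on ER stress, was at 162, 91.7 and 144 CPM in the controls and 264, 191 and 333 CPM in the degenerated libraries, without overlap, and missed the criterion (log2 fold change 0.99 ± 0.29, adjusted p = 0.398 in edgeR's quasi-likelihood test). Manf met it with DESeq2, with edgeR's exact test and without degenerated replicate 2. Of the regulators, Xbp1, the factor spliced by Ern1, was at 5.96, 2.41 and 5.74 CPM in the controls and 8.28, 8.87 and 9.71 CPM in the degenerated libraries, without overlap, in 1 of its 4 transcripts (log2 fold change 0.93 ± 0.41). Ddit3 (CHOP) had a log2 fold change of 0.32 ± 0.17 and Atf4, the factor translated when protein synthesis is throttled, 0.043 ± 0.16. The mRNA of Atf4 was at 353 ± 63.1 CPM in the controls and 364 ± 34.6 CPM in the degenerated libraries (mean ± SD, n = 3 per group). P4hb, the founding protein disulfide isomerase, had a log2 fold change of 0.22 ± 0.12, and Calr -0.52 ± 0.33 at the low level of its 2 listed transcripts, 7.84 ± 2.35 CPM in the controls and 5.45 ± 0.281 CPM in the degenerated libraries. Canx was not tested.

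**Figure D3:**
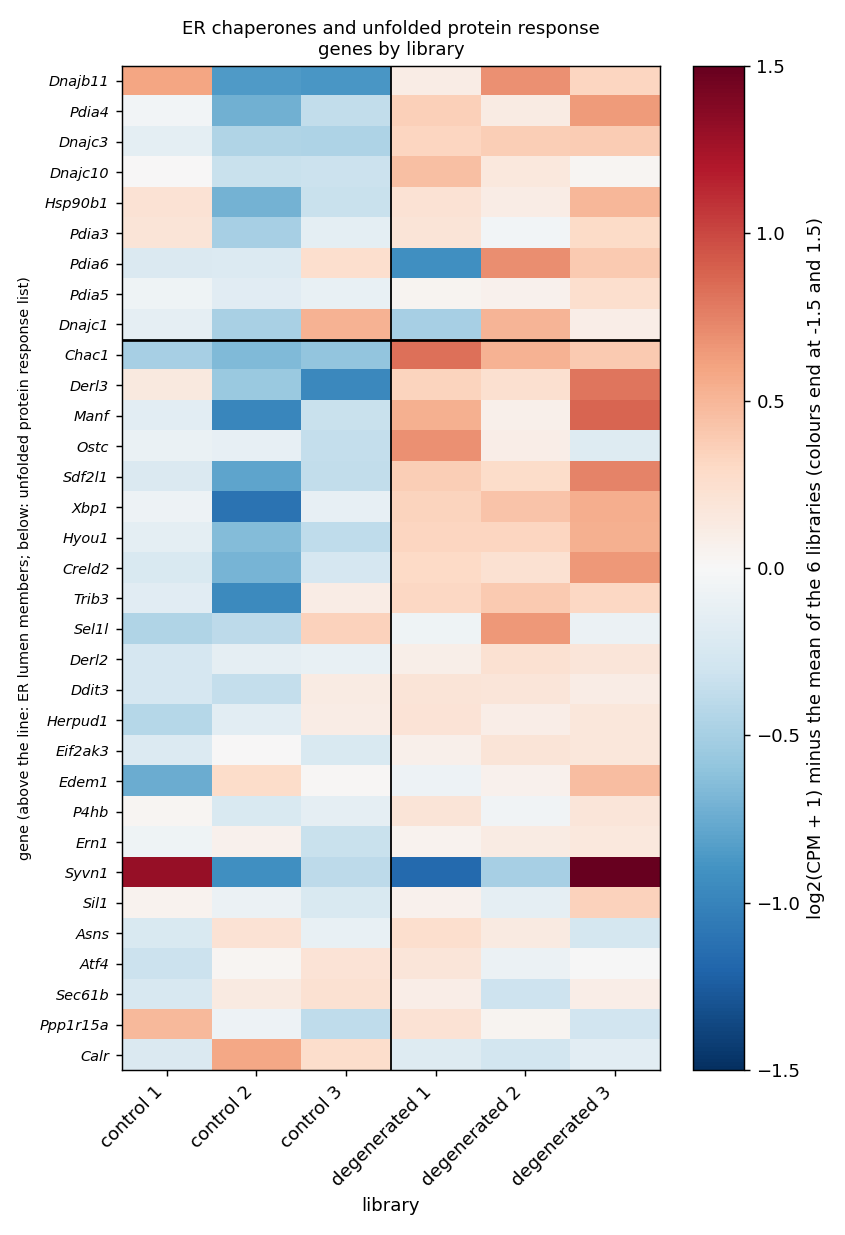
Log2(CPM + 1) of tested ER lumen members and of genes of the ER response in each of the 6 libraries, as the difference from the mean of the gene, with colours ending at -1.5 and 1.5. Dnajc3, Chac1, Hyou1, Sdf2l1 and Creld2 are higher in each degenerated library than in each control, and control replicate 1 is nearest to the degenerated libraries for Hsp90b1 and Pdia3.

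In the cytosol and nucleus, 1 of 24 tested members was called, beside 2.01% of all genes called higher and 0.715% lower. Hspa2 (ENSMUSG00000059970, chr12:76404176-76406938, plus strand), an Hsp70 known best from the testis but also made in brain, was at 76.7, 61.5 and 72.9 CPM in control replicates 1 to 3 and 113, 102 and 131 CPM in degenerated replicates 1 to 3. It rose from 70.4 ± 7.92 to 115 ± 14.7 CPM (mean ± SD, n = 3 per group), without overlap between the groups (log2 fold change 0.71 ± 0.15, adjusted p = 0.307 in edgeR's quasi-likelihood test, adjusted p = 0.0124 in DESeq2). The call of Hspa2 was lost without control replicate 2, control replicate 3, degenerated replicate 1 or degenerated replicate 3, when the log2 fold change stayed between 0.61 and 0.73 and the adjusted p in edgeR's quasi-likelihood test was 0.529 to 0.565. Its listed transcript, which codes for protein, is 1 of 2.

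The stress-induced Hsp70 and Hsp90 had larger differences and a larger spread. Hspa1b (ENSMUSG00000090877, chr17:34956436-34959238, minus strand), the classical heat-induced Hsp70, was at 30.2, 63.7 and 93.5 CPM in control replicates 1 to 3 and 126, 153 and 169 CPM in degenerated replicates 1 to 3. All degenerated libraries lay above all controls, although the controls themselves spread widely, lowest in replicate 1 and highest in replicate 3 (log2 fold change 1.26 ± 0.41, adjusted p = 0.421 in edgeR's quasi-likelihood test). Hspa1b met the criterion with DESeq2, with edgeR's exact test, without control replicate 1 (log2 fold change 0.92) and without control replicate 3 (1.66). Its coding sequence is nearly identical to that of Hspa1a, which had no listed transcript, so that reads of the pair may have been shared and the value is uncertain. Hspa1l, the neighbouring gene on the chromosome, had a log2 fold change of 0.20 ± 0.70.

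Hsp90aa1 (ENSMUSG00000021270, chr12:110690605-110702728, minus strand), the inducible cytosolic Hsp90, was at 194, 144 and 153 CPM in control replicates 1 to 3 and 452, 312 and 1672 CPM in degenerated replicates 1 to 3. The degenerated libraries were all higher, and degenerated replicate 3 stood far above the other two. The log2 fold change was 2.31 ± 0.66 (adjusted p = 0.394 in edgeR's quasi-likelihood test, adjusted p = 0.0154 in DESeq2). Without degenerated replicate 3 the log2 fold change was 1.22 and met the criterion, as did 2.70 without degenerated replicate 2. Of its 8 annotated transcripts 3 were listed, and Hsp90aa1-202 held nearly all the counts, with 199, 136 and 154 CPM in the controls and 448, 299 and 1615 CPM in the degenerated libraries. A shift of reads between listed and unlisted transcripts was not tested. Hsp90ab1, the constitutive partner, was measured almost wholly in noncoding transcripts (7.44% of its counts lay in coding ones), and its log2 fold change of 0.20 ± 0.50 was below 0 without control replicate 1, control replicate 3 or degenerated replicate 3.

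The constitutive machinery of the cytosol had small differences. Hspa8 (Hsc70), the main Hsp70 of unstressed cells, was at 1262, 1183 and 1219 CPM in the controls and 1195, 1257 and 1439.7 CPM in the degenerated libraries, with overlapping groups and a log2 fold change of 0.087 ± 0.11. Hsph1 (Hsp110), an exchange factor for Hsp70, was at 282, 214 and 214 CPM in the controls and 240.0, 343 and 335 CPM in the degenerated libraries, with degenerated replicate 1 among the controls (log2 fold change 0.37 ± 0.19). Its relative Hspa4l had 0.34 ± 0.22. Dnaja1, a main Hsp70 partner, had -0.06 ± 0.18. Dnajc7, which links Hsp70 to Hsp90, had -0.15 ± 0.13.

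DnaJ proteins of the cytosol had values on both sides of 0. Dnajb1 (Hsp40), the inducible partner of Hspa1b, had values in the other direction from Hspa1b, at 96.4, 149 and 146 CPM in the controls and 78.5, 101 and 104 CPM in the degenerated libraries. Degenerated replicates 2 and 3 overlapped control replicate 1, and Dnajb1 was called lower only without that library (log2 fold change -0.47 ± 0.21, -0.66 without it). Dnajb2, a neuronal DnaJ protein that brings ubiquitinated clients to the proteasome, was at 117, 101 and 94.4 CPM in the controls and 127, 125 and 167 CPM in the degenerated libraries, without overlap (log2 fold change 0.42 ± 0.16, adjusted p = 0.493 in edgeR's quasi-likelihood test). Dnajb5 (0.31 ± 0.16) and Dnajb6 also had all degenerated libraries above all controls. In Dnajb6, which keeps polyglutamine proteins soluble, the levels were 150.1 ± 2.61 CPM in the controls and 160.2 ± 0.541 CPM in the degenerated libraries (mean ± SD, n = 3 per group), with a log2 fold change of 0.094 ± 0.087.

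Dnajc21, needed to mature the large ribosomal subunit, was at 69.1, 78.4 and 72.1 CPM in the controls and 48.2, 58.9 and 61.6 CPM in the degenerated libraries, with every degenerated library below every control (log2 fold change -0.38 ± 0.15, adjusted p = 0.496 in edgeR's quasi-likelihood test). Dnajc12, which serves the aromatic amino acid hydroxylases, had the lowest log2 fold change of the members (-2.31 ± 1.13) at a very low level. It was at 1.32, 2.55 and 3.96 CPM in the controls and 0.274, 1.27 and 0 CPM in the degenerated libraries. Only 17.1% of its counts lay in coding transcripts. Dnajc6 (auxilin), which strips clathrin from vesicles in neurons, was at 3.48 ± 0.236 CPM in the controls and 4.09 ± 0.485 CPM in the degenerated libraries (mean ± SD, n = 3 per group) with a log2 fold change of 0.23 ± 0.28. The other tested members were Dnajb3, Dnajb4, Dnajc2, Dnajc8, Dnajc17, Dnajc24 and Hspa14, whose log2 fold changes ran from -0.30 to 0.80 with standard errors of 0.17 to 0.74. Dnaja2 and Dnajb8 were too low to test, and Dnaja4, Dnajb7, Dnajc9 and Hspa4 had no listed transcript.

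The factors and co-chaperones around these proteins, a list of 21 genes, had 0 calls among 19 tested and a median log2 fold change of -0.01. Of all genes, 2.01% were called higher and 0.715% lower. In edgeR's quasi-likelihood test, 1 gene of the list had an unadjusted p under 0.05, beside 9.68% of all genes. That gene was Bag3, which steers Hsp70 clients to autophagy and is itself a heat shock gene, at 169.7, 152 and 157 CPM in the controls and 198, 203 and 187 CPM in the degenerated libraries without overlap (log2 fold change 0.30 ± 0.098). Hsf1, the heat shock factor, had -0.018 ± 0.11, and Stip1, the bridge between Hsp70 and Hsp90, 0.08 ± 0.12. The cytosolic chaperonin TRiC and its feeder prefoldin, 13 tested genes, had a median of -0.11. In the same test they had 0 calls and 0 genes at an unadjusted p under 0.05, beside the same shares of all genes.

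Small heat shock proteins hold unfolded protein without ATP. Hspb8 (ENSMUSG00000041548, chr5:116408491-116422864, minus strand), the partner of Bag3 and a gene of motor neuropathy, was at 222, 173 and 209 CPM in the controls and 343, 277 and 239 CPM in the degenerated libraries. The 3 degenerated libraries lay above the 3 controls, degenerated replicate 3 by the least (log2 fold change 0.51 ± 0.17, adjusted p = 0.437 in edgeR's quasi-likelihood test), and both annotated transcripts were listed. Hspb6, an abundant protein of smooth and heart muscle, had a log2 fold change of 0.22 ± 0.26. Hspb2 and Hspb7, which are muscle proteins too, had -0.014 ± 0.28 and -0.44 ± 0.39. Control replicate 3, the library with muscle markers, held 2.999 CPM of Hspb7 against 2.65 and 1.56 CPM in the other controls. Hspb6 and Hspb2 were highest among the controls in replicate 2. In control replicates 1 to 3, Hspb6 was at 21.8, 36.6 and 25.4 CPM and Hspb2 at 7.48, 11.96 and 11.49 CPM. The part of muscle RNA in these values was not tested. Hspb9 had 1 count and Hspb3 no listed transcript.

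In the mitochondrion, 0 of 8 tested members were called in edgeR's quasi-likelihood test, beside 2.01% of all genes called higher and 0.715% lower. Of the 8, 0 had an unadjusted p under 0.05 in that test, beside 9.68% of all genes. DESeq2, edgeR's exact test and limma-voom also called 0 of them, where they called 2% to 3.39% of all genes higher and 0.758% to 2.17% lower. Hspa9 (mortalin), the Hsp70 that pulls proteins into the matrix, was at 694, 562 and 671 CPM in the controls and 762, 696 and 639 CPM in the degenerated libraries. Hspd1 (Hsp60) was at 405, 330.5 and 443 CPM in the controls and 406, 428 and 431 CPM in the degenerated libraries. Both had overlapping groups, with log2 fold changes of 0.12 ± 0.13 and 0.10 ± 0.13. Hspe1 (Hsp10), the lid of Hspd1, was counted only in a transcript with a retained intron, at 2.25, 2.19 and 2.23 CPM in the controls and 3.15, 2.82 and 3.24 CPM in the degenerated libraries, without overlap (log2 fold change 0.46 ± 0.28). The annotated starts of Hspd1 and Hspe1 overlap on opposite strands and the strand of the counting is not given, so that reads there cannot be assigned to 1 of them. Dnaja3, the DnaJ partner of Hspa9, was at 31.1, 32.0 and 22.1 CPM in the controls and 11.9, 27.3 and 22.1 CPM in the degenerated libraries, lowest in degenerated replicate 1 (-0.47 ± 0.35). Dnajc11, Dnajc15, Dnajc19 and Dnajc30 ran from -0.18 to 0.012, and Dnajc28 was too low to test.

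Of the members of vesicles and endosomes 2 were tested, 1 with all degenerated libraries above all controls and 1 with all below. Of all genes, 10.3% lay above and 7.37% below. Dnajc5 (cysteine string protein), which keeps the release machinery of synaptic vesicles folded, was at 145, 148 and 149 CPM in the controls and 134, 119 and 126 CPM in the degenerated libraries. Each degenerated library lay below each control (log2 fold change -0.22 ± 0.098, adjusted p = 0.555 in edgeR's quasi-likelihood test), and so did the sum of the neuron markers (8917 to 12262 CPM in the controls and 5537 to 8092 CPM in the degenerated libraries), whose part in the value was not tested. Dnajc13, which acts on endosomes, was at 198, 179.6 and 179 CPM in the controls and 199, 229 and 207 CPM in the degenerated libraries, with each degenerated library above each control (0.19 ± 0.10). Dnajc5b had 2 counts in the controls and 11 in the degenerated libraries, and Dnajc5g had 0 counts in all 6.

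Of the members with another or an unsure place, Dnajc4 was at 44.0, 44.7 and 41.9 CPM in the controls and 36.6, 32.9 and 35.8 CPM in the degenerated libraries, with every degenerated library below every control (log2 fold change -0.31 ± 0.14). Hspa12a, a distant Hsp70, had -0.029 ± 0.19, Dnajb13 -0.30 ± 0.65 and Dnajc27 0.85 ± 1.53. Hspa12b, the endothelial relative of Hspa12a, had 0 counts in the controls and 63 counts in the degenerated libraries, all in replicates 1 and 2, in a noncoding transcript, and was too low to test with all 6 libraries, although it was called higher without degenerated replicate 3. Dnajc22 and Hspb11 were also too low.

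Only 10 of the 67 listed members had every annotated transcript in the table, and 8 of these were tested. They were Dnajc3, Hspa1b, Hspb8, Hspa1l, Hspb6, Hspb7, Dnajb3 and Dnajc30. For these the sum does not depend on which transcripts of the gene are listed. Reads of Hspa1b may still have been shared with Hspa1a, which had no listed transcript, so that its value is uncertain. An unadjusted p under 0.05 (edgeR) was reached by 3 of the 8, Dnajc3, Hspa1b and Hspb8, all with higher levels in the degenerated libraries. Of the 3420 tested genes with every transcript listed, 9.42% reached it in either direction. For 10 of the 55 tested members, most counts lay in noncoding transcripts, and those values say little about the protein-coding mRNA. These 10 were Dnajc8, Dnajc10, Dnajc12, Dnajc15, Dnajc17, Dnajc27, Hsp90ab1, Hspa14, Hspe1 and Pdia6.

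Tested by transcript, the calls fell on transcripts of Dnajc3 and Hspa2. Of 114 tested member transcripts, 2 were upregulated, Dnajc3-201 (log2 fold change 0.66 ± 0.12) and Hspa2-202 (0.67 ± 0.17), and 0 downregulated, where 1.14% of all 26065 transcripts were called higher and 0.652% lower. The adjusted threshold of 0.05 was passed by 0 member transcripts and 0.0153% of all transcripts, and in edgeR's quasi-likelihood test the adjusted p of these 2 was 0.344 and 0.527. In some genes, transcripts traded places in 1 library, on CPM normalized over transcripts. Dnajc13-203 had 106 CPM in degenerated replicate 1 and at most 0.0789 CPM elsewhere, whereas Dnajc13-201 had 78.9 CPM in that library and 173 to 218 CPM in the others, and the sum over the gene stayed in the range of the other libraries. Dnajc14-202 reached 119.6 CPM in control replicate 1, which is nearly all of the high value of Dnajc14 there. Such transfers between transcripts of 1 gene leave the gene's sum unchanged only where both transcripts are listed.

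**Figure D4:**
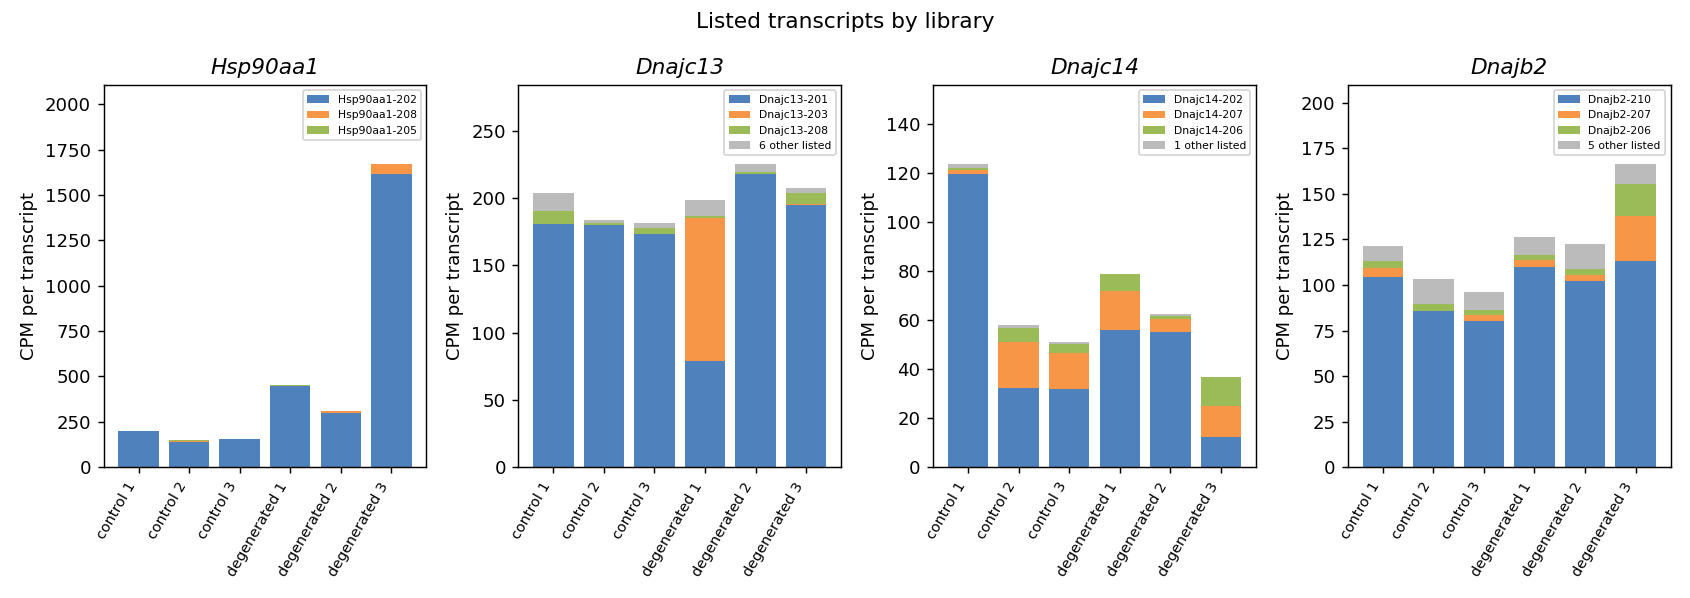
Stacked CPM of the listed transcripts of Hsp90aa1, Dnajc13, Dnajc14 and Dnajb2 in each of the 6 libraries, with the 3 most abundant transcripts in colour and the others in grey. In degenerated replicate 1 the largest share of Dnajc13 is Dnajc13-203 (106 CPM) and in the other 5 libraries Dnajc13-201.

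**Figure D5:**
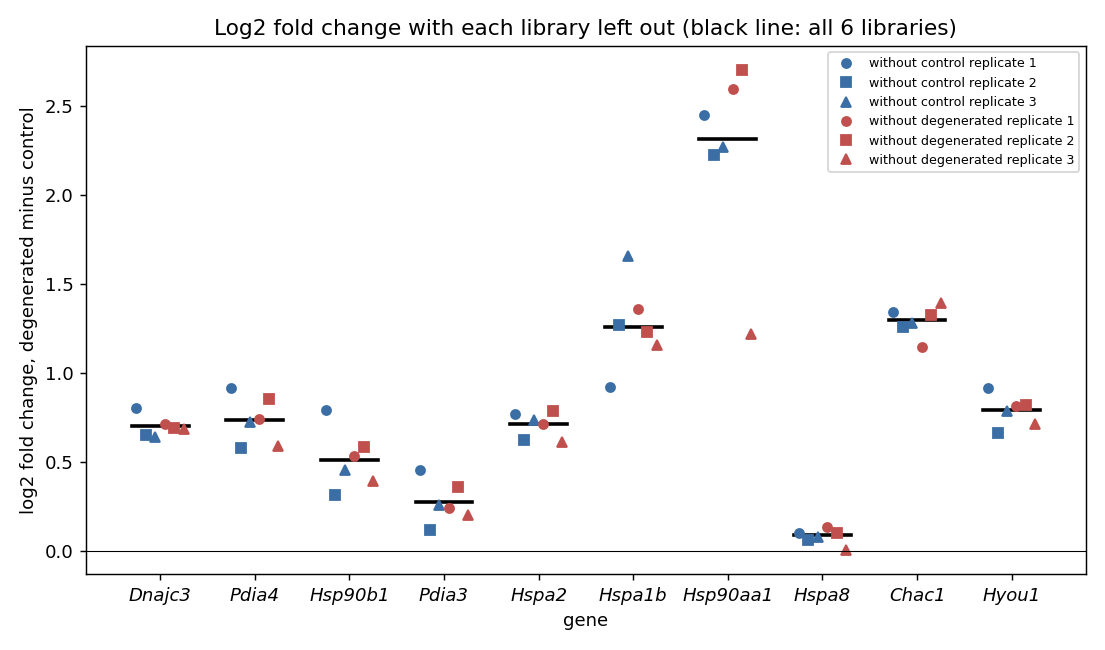
Log2 fold change of single members and ER response genes from all 6 libraries and without each library in turn (coloured symbols), where the black line is the value from all 6. The values of Dnajc3 stay between 0.64 and 0.80, whereas those of Hsp90aa1 run from 1.22 without degenerated replicate 3 to 2.70 without degenerated replicate 2.

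Compared per length, as TPM (counts scaled by transcript length and library) over the listed transcripts, the most abundant members were Hspa8, Hsp90b1 and Pdia3. In TPM (mean ± SD, n = 3 per group), Hspa8 was at 945 ± 94.7 in the controls and 1083 ± 121 in the degenerated libraries, Hsp90b1 at 850.0 ± 340.3 in the controls and 1285 ± 169.8 in the degenerated libraries, and Pdia3 at 709.6 ± 212 in the controls and 915 ± 84.2 in the degenerated libraries. These 3 differed from each other in the controls by less than the SD of Hsp90b1. Hspa9 was at 387 ± 65.1 in the controls and 451 ± 34.4 in the degenerated libraries, Dnajc3 at 165 ± 32.0 in the controls and 289 ± 16.2 in the degenerated libraries and Pdia4 at 159 ± 48.0 in the controls and 283 ± 47.8 in the degenerated libraries. Hsp90aa1 was at 100.4 ± 16.3 in the controls and 535 ± 512 in the degenerated libraries, the widest spread of the named genes, and Hspa2 at 51.1 ± 8.87 in the controls and 89.8 ± 10.4 in the degenerated libraries. Dnajc3 and Pdia4 differed in TPM by less than the SD of either in both groups.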

How the data were processed

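Modiolus RNA was sequenced in 3 control and 3 degenerated libraries, and groups follow the labels. Reads were aligned by the authors with Hisat2, and StringTie was run for expression, whereas the submitters' processing notes name Bowtie 0.12.2 and the builds mm8 and mm10 without a role. The sources used here do not name the annotation, counting step or strand setting. The authors deposited raw counts, not normalized, for 65535 Ensembl transcripts. With its header the table fills 65536 lines, the row limit of an older spreadsheet format, so it may be cut short, and a gene with no listed transcript may still have been measured. Counts of listed transcripts were added up per gene with GENCODE M21 (GRCm38). The 263 unmatched transcripts, with 0.125% of the counts, were left out, and 0 columns belonged to no sample. A gene's listed transcripts are often a part of those annotated, so that a change in transcript use can change its sum.

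The test was the robust quasi-likelihood F test of edgeR 4.0.16 (R 4.3.3) without covariates, after filterByExpr and TMM normalization (factors of 0.983 to 1.02), and p-values were adjusted by Benjamini-Hochberg over all 14118 genes or, in a separate fit, all 26065 transcripts tested. Values after ± beside a log2 fold change are standard errors. CPM were computed from the deposited counts with the TMM factors, and TPM from the lengths of the listed transcripts. The common biological coefficient of variation was 0.488 for genes. Alternatives were the exact test of edgeR, limma-voom (limma 3.58.1), DESeq2 1.42.0, RLE and upper-quartile normalization, other filters, a block on the replicate number, genes with every transcript listed, and each library left out. The steps were also run on simulated counts. These had less spread than the data and larger changes than most members had, so that they do not test calls of the size seen here.

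The members, compartments, lists and motifs were chosen with earlier results of these data known. Named were called members, classical chaperones of each compartment and the highest and lowest member of each compartment. Other members, such as Dnajb2, Dnajb5, Dnajb6, Dnajc4, Dnajc13 and Dnajc21, and Manf were named after their values were seen. A gene that matches the name pattern is not reported here.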

Additional observations from a re-analysis of the deposited data

How the results depend on the processing

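The number of upregulated members, 2 with all libraries, was 5 with DESeq2, 5 with edgeR's exact test (both adding Hsp90aa1, Hspa1b and Pdia4), 4 with the replicate number as a block (adding Hspa1b and Pdia4) and 1 among genes with every transcript listed, where fewer members were tested, and it was 1 to 6 without 1 library. It was 6 without control replicate 1 and 1 without control replicate 2 or degenerated replicate 1. The share of all genes called higher moved too, from 2.01% to 3.39%, 2% and 1.13% in the first 3 of these settings, 2.36% among genes with every transcript listed, and 2.31%, 1.26% and 1.41% without control replicate 1, control replicate 2 and degenerated replicate 1. The block also called Manf. Downregulated members, 0 with all libraries, were 0 to 1 without 1 library. Upregulated member transcripts, 2 with all libraries, were 4 with DESeq2, 1 with the exact test, 1 with the replicate block and 1 to 4 without 1 library, 1 of them without control replicate 2 or degenerated replicate 1 and 4 without degenerated replicate 3. Downregulated member transcripts were 1 with DESeq2 and 0 to 1 without 1 library. The other settings (limma-voom, RLE, upper quartile, no filter, a mean count of 10) called 2 members and 2 transcripts each. The ER median of 0.27 was 0.39 with a mean count of at least 10 and 0.27 to 0.53 without 1 library. Among genes with every transcript listed the value was 0.69, but there Dnajc3 was the only ER member tested. That of the cytosol and nucleus, 0.20, was 0.057 to 0.25 without 1 library, and that of the mitochondrion -0.056 to 0.055. Signs turned for genes near 0: Hspb2, -0.014 with all libraries, was 0.014 with limma-voom and 0.014 with the replicate block. Without 1 library the log2 fold changes ran as follows, and the causes were not tested. They were -0.098 to 0.15 for Atf4, -0.16 to 0.043 for Dnaja1, -0.46 to 0.90 for Dnajc1, -0.61 to 0.15 for Dnajc14, -0.36 to 1.84 for Dnajc27, -0.053 to 0.0083 for Hsf1, -0.18 to 0.71 for Hsp90ab1, -0.21 to 0.10 for Hspb2, -0.011 to 0.19 for Hspd1 and -0.089 to 0.62 for Pdia6. Deviations from the group means correlated at 0.160, -0.0905 and 0.0674 for replicate numbers 1 to 3, and libraries of the same number were not always the closest. With 3 libraries per group, such correlations cannot tell whether the numbers pair the libraries.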
